A study of Saccharomyces cerevisiae with 8 samples.

Results

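The 10 genes described here encode the enzymes that shorten poly(A) tails in yeast, the Ccr4-Not complex and the Pan2-Pan3 complex. They were chosen by systematic name, as subunits of these complexes, and all 10 were found among the 11993 features of the deposited table, of which 5976 were protein-coding genes. They are CCR4 (YAL021C), POP2 (YNR052C), CDC39 (YCR093W), CDC36 (YDL165W), NOT3 (YIL038C), MOT2 (YER068W), NOT5 (YPR072W), CAF40 (YNL288W), PAN2 (YGL094C) and PAN3 (YKL025C).

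Total RNA was sequenced strand by strand in the budding yeast Saccharomyces cerevisiae (strain BY4741, haploid), in a study of non-coding RNAs under blocked translation. The 4 groups of cultures were upf1 cells with cycloheximide (CHX, an inhibitor of translation elongation), upf1 cells with its solvent dimethyl sulfoxide (DMSO), wild-type (WT) cells with CHX, and WT cells with DMSO. All cells were MATa his3Δ1 leu2Δ0 met15Δ0 ura3Δ0, the upf1 cells also carried upf1::kanMX4, and all grew in rich medium (YPD) at 30 °C to an OD600 of 0.5 before 15 min with 100 µg/ml CHX or the same volume of DMSO. Each of the 4 groups had 2 libraries, called biological replicates by the series, and with 2 per group no permutation test of 2 libraries against 2 could reach significance, so limma, which pools the spread over all features, was used.

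A poly(A) tail protects an mRNA and helps its translation. In the usual picture for yeast, Pan2-Pan3 trims a newly made tail that is covered by the poly(A)-binding protein Pab1, and Ccr4-Not removes most of the rest, after which the mRNA is decapped and digested from its 5′ end. Ccr4-Not also senses slow ribosomes, whereas Upf1, the RNA helicase missing in the mutant, directs mRNAs with a premature stop codon to decay.

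Both nuclease subunits of Ccr4-Not are held by Cdc39 (also called Not1), its scaffold. Ccr4 is the main deadenylase and Pop2 (Caf1) is a second nuclease that bridges Ccr4 to the scaffold. Cdc36 (Not2), Not3 and Not5 form the NOT module, Mot2 (Not4) is a RING-type ubiquitin ligase, and Caf40 is an armadillo-repeat subunit. Pan2 is the nuclease of the second complex, and Pan3 is its pseudokinase partner that binds Pab1.

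Start-codon contexts of 4 of the genes are shown because a short upstream reading frame is one feature by which an mRNA can become a target of Upf1, and the upf1 mutant is one arm of the study. Each gives the 20 bases before and the first 10 bases from the annotated start, 5′ to 3′ on the coding strand of build R64, with each ATG up to the start codon in capitals. The last one in capitals is the annotated start codon.
PAN2, chrVII:334456-334485, minus strand: ttctgaATGgtgaATGtattATGaataatt
NOT3, chrIX:282643-282672, minus strand: tgtATGtttagtcgatcgacATGgctcata
CDC39, chrIII:280097-280126, plus strand: actcagggacaattgattacATGctatcgg
MOT2, chrV:293030-293059, plus strand: tcgtatataatccagtcataATGatgaatc
PAN2 had 2 additional ATGs just before its start codon, at positions -14 and -7 counted from the A of the start codon. The first opened a frame of 5 codons whose stop codon ended at position 4, and the second a frame of 4 codons whose stop codon ended at position 8, so both overlapped the annotated start. NOT3 had 1 at position -17, with a frame of 26 codons. CDC39 and MOT2 had none in the 20 bases shown. In the 50 bases before the start codon, 4 of the 10 genes (NOT3, NOT5, PAN2 and PAN3) had an ATG whose frame was closed by a stop codon of its own, against 18.6% of 6021 genes of the reference annotation. Transcript start sites were not used here, so whether these bases are part of the mRNA was not tested.

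The stretches from 250 to 51 bases before the start codons of MOT2 and POP2 are shown because these were the only 2 of the 10 genes with the letters CGGGTAA in that window, searched on both strands. Those letters are known as the core of the site bound by Reb1, a general regulatory factor of yeast promoters. They are in capitals, and in POP2 they lie on the other strand.
MOT2, chrV:292800-292999, plus strand: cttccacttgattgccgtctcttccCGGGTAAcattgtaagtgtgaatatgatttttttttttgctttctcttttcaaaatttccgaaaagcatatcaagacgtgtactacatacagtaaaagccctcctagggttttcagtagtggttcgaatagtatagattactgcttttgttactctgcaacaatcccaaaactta
POP2, chrXIV:720698-720897, minus strand: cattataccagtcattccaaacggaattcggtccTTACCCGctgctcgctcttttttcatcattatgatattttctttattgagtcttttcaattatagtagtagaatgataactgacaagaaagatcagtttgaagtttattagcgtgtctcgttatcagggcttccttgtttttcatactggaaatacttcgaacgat
CGGGTAA was found in 6.96% of the 6020 windows of the same length in the genome. TATAAA, the core of a TATA box, was searched in the same way, shares no match with CGGGTAA, and was in the windows of 3 of the 10 genes (CDC36, NOT5 and PAN3) and in 38.0% of all windows. MOT2 and POP2 are set beside each other in the CHX results.

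All 10 genes were measured on ample reads. Whole reads were recovered from the deposited densities, and libraries held from 9.09 M to 25.64 M of them, with 397 to 10294 reads for a deadenylase gene in a library. Replicates of a group differed by more than counting noise, with a chi-square per feature from 3.62 in WT DMSO to 16.1 in upf1 DMSO, where 1 is expected from counting alone. NAM7, the gene that encodes Upf1, had 45 to 161 reads in upf1 CHX and 96 to 134 in upf1 DMSO, against 3300 to 4143 in WT CHX and 1901 to 3868 in WT DMSO. LEU2 and URA3, deleted in the strain, had at most 2 reads in a library. STE2, the receptor gene of mating type a, had 6380 to 27726 reads, and STE3, that of mating type alpha, had 22 to 518.

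Levels are given as densities, normalized reads per nucleotide of the feature. Nearly all deposited mRNA densities were higher in CHX than in DMSO libraries of the same genotype. The normalization step was not given, so a rise of all mRNAs and a shift of the library factors cannot be told apart. Over 5897 protein-coding genes tested, their median log2 change was 1.55 for CHX in WT, 1.14 for CHX in upf1, 0.57 for upf1 against WT in DMSO and 0.32 for upf1 against WT in CHX. Changes are therefore also given on an mRNA-rescaled density, in which each library was divided by its median ratio over 5817 protein-coding genes, so that a rescaled change is close to a change against the typical mRNA. After rescaling, those 4 medians were 0.069, -0.054, -0.11 and -0.051. All values are averages over a culture, in which fewer cells of a kind and less RNA per cell cannot be told apart.

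The order of the levels differed between the CHX and DMSO libraries. As deposited, CDC36 had the highest mean in upf1 CHX, 1.66 normalized reads per nt, although its replicates overlapped those of NOT5, and PAN3 the lowest, 0.647, with replicates that overlapped those of PAN2. In upf1 DMSO, CDC39 (0.907) and CDC36 (0.843) led with overlapping replicates, and MOT2 was last with 0.281. In WT CHX, CDC36 led with 1.35 ± 0.0239 and PAN2 was last with 0.535 ± 0.0540 (SD, n = 2 each), a 2.53-fold range, and the replicates of PAN2 overlapped those of PAN3. MOT2 stood sixth in upf1 CHX and seventh in WT CHX, where its replicates overlapped those of CCR4 in both, and ranked last in both DMSO groups.

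In WT cells with DMSO the scaffold mRNA was the most abundant of the 10 and the ubiquitin ligase mRNA the least abundant. CDC39 had 0.634 ± 0.00170 normalized reads per nt and MOT2 0.205 ± 0.00752 (SD, n = 2 each), a 3.09-fold range on the deposited scale. CDC39 was followed by CDC36 (0.558), CCR4 (0.434), POP2 (0.417), NOT5 (0.416), CAF40 (0.340), PAN2 (0.273), NOT3 (0.244) and PAN3 (0.229). The replicates of CCR4 overlapped those of POP2, and those of POP2 overlapped those of NOT5. Likewise NOT3 was not separated from PAN3, nor PAN3 from MOT2. The 10 genes lay in the middle and upper part of the protein-coding genes, with MOT2 above 49.1% of them and CDC39 above 79.2%. The mRNA of the nuclease PAN2 stood above that of its partner PAN3 in both WT DMSO libraries (0.269 and 0.278 for PAN2, 0.209 and 0.249 for PAN3).

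**Figure D1:**
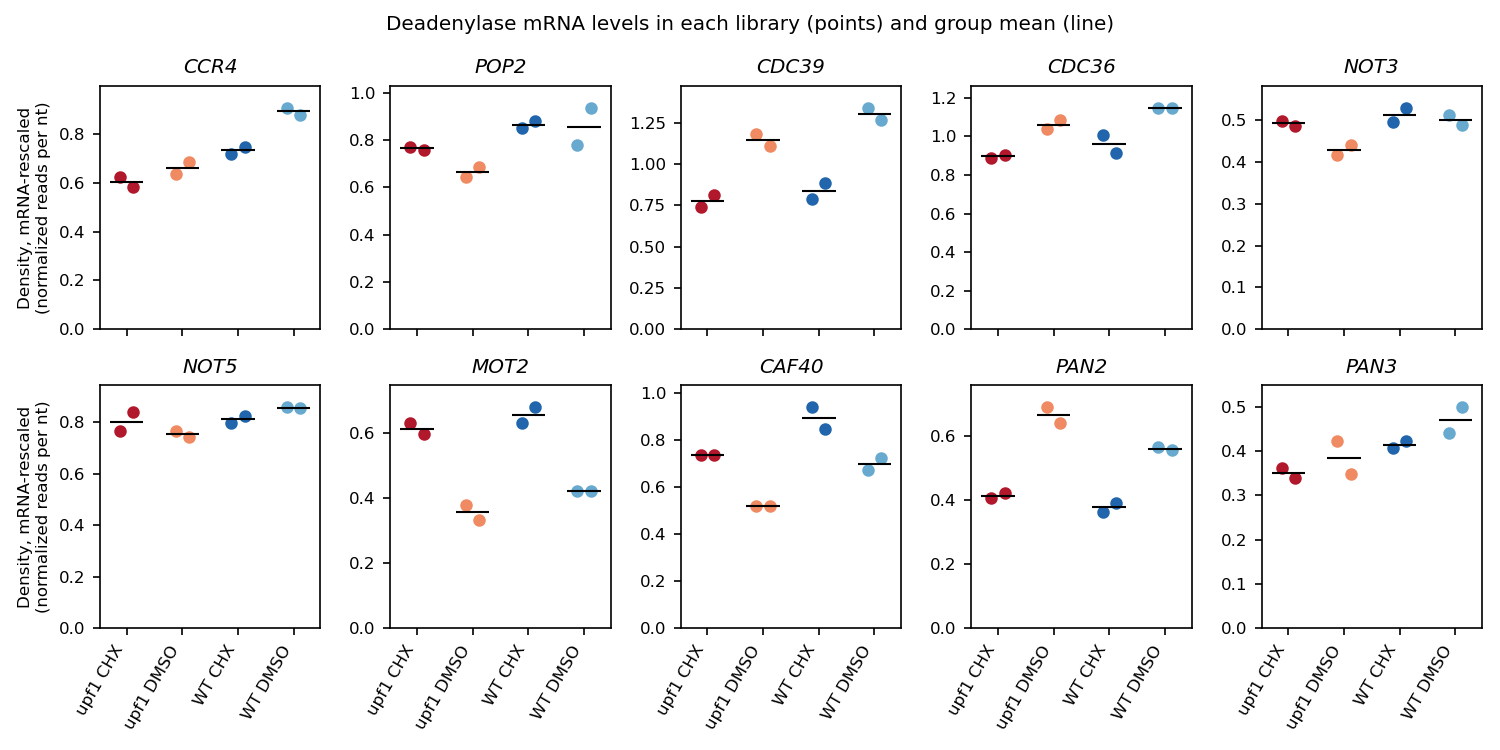
Density of each of the 10 mRNAs (vertical axis from 0, normalized reads per nt, mRNA-rescaled) in the 8 libraries; points are libraries, lines are group means, and red, orange, dark blue and light blue are upf1 CHX, upf1 DMSO, WT CHX and WT DMSO. MOT2 and CAF40 sit higher, and CDC39 and PAN2 lower, in both CHX groups than in the DMSO group of the same genotype.

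CHX in WT cells raised the mRNAs of the ubiquitin ligase Mot2 and of Caf40 after rescaling, and lowered those of the scaffold Cdc39, of Pan2, of Ccr4 and of Cdc36. Thus 2 of the 10 genes passed an adjusted p of 0.05 upward and 4 downward, against 44.1% of the 11700 features tested upward and 18.9% downward. On the deposited scale all 10 rose and none fell, against 95.0% and 0.0769% of all features. Scaled on the total of protein-coding densities 8 rose and none fell, where 4217 of 5897 protein-coding genes rose and 381 fell. On that scaling the median was 0.46 for the 10 and 0.64 for protein-coding genes. Of 5897 protein-coding genes, 2059 were higher and 1811 lower after rescaling. The median of the 10 was -0.13 after rescaling, beside 0.069 for protein-coding genes and 0.35 for all features.

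MOT2 had the steepest rise of the 10. Its rescaled density was 0.629 and 0.678 in the WT CHX libraries, against 0.421 and 0.422 in the WT DMSO libraries. Both CHX libraries lay above both DMSO libraries. The log2 change was 0.63 ± 0.09 (SE), or 1.54-fold (limma, adjusted p = 0.000558), and on the deposited scale 2.14, the highest of the 10 genes.

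CAF40 also rose on every scaling tried. It had rescaled densities of 0.940 and 0.849 in WT CHX, against 0.673 and 0.725 in WT DMSO, without overlap. The log2 change was 0.35 ± 0.08 (SE; limma adjusted p = 0.00449).

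CDC39 moved the other way after rescaling. It had 0.790 and 0.883 in WT CHX, against 1.34 and 1.27 in WT DMSO, and both CHX libraries were lower. The log2 change was -0.64 ± 0.08 (SE; limma adjusted p = 0.000426), but scaled on the total of protein-coding densities it was -0.046 (adjusted p = 0.678), the highest adjusted p over 17 alternatives, of which the lowest was 1.37e-05. PAN2, with 0.364 and 0.391 in WT CHX against 0.566 and 0.558 in WT DMSO, changed by -0.57 ± 0.08 (SE; limma adjusted p = 0.000486). Its call too was lost on the total of protein-coding densities, where the change was 0.023 (adjusted p = 0.817, with a range of 3.04e-05 to 0.817 over 17 alternatives). On that scaling the median protein-coding gene rose by 0.64, so CDC39 and PAN2 both stayed below the typical mRNA. As deposited, CDC39 rose by 0.89 and PAN2 by 0.95, the smallest rises of the 10, beside a protein-coding median of 1.55.

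CCR4 and CDC36 fell less, and each of these calls depended on single libraries. CCR4 had 0.719 and 0.749 in WT CHX, against 0.907 and 0.879 in WT DMSO, and CDC36 had 1.00 and 0.913 in WT CHX, against 1.15 and 1.15 in WT DMSO. The log2 changes were -0.28 ± 0.07 for CCR4 (limma, adjusted p = 0.0104) and -0.26 ± 0.07 for CDC36 (adjusted p = 0.012). The CCR4 call was lost without WT DMSO replicate 1 (adjusted p = 0.0588) and without WT CHX replicate 1 (0.0614), and the CDC36 call without WT DMSO replicate 1 (0.052), WT DMSO replicate 2 (0.0539) and WT CHX replicate 2 (0.078), which were the highest adjusted p-values of CCR4 and CDC36 over 17 alternatives; their lowest were 0.00598 and 0.00338. Scaled on the total of protein-coding densities, both turned to a rise that passed the test, of 0.31 for CCR4 and 0.34 for CDC36. The median protein-coding gene rose by 0.64 on that scaling, so both stayed below the typical mRNA there. The lowest adjusted p of CDC36, 0.00338 (limma), belonged to that rise.

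The remaining 4 genes did not pass the test after rescaling. POP2, the second nuclease, changed by 0.021 (95% interval -0.20 to 0.24), NOT3 by 0.032 (-0.14 to 0.20), NOT5 by -0.078 (-0.24 to 0.081) and PAN3 by -0.18 (-0.43 to 0.083). MOT2 and POP2, which share CGGGTAA before their start codons, had changes of 0.63 and 0.021.

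**Figure D2:**
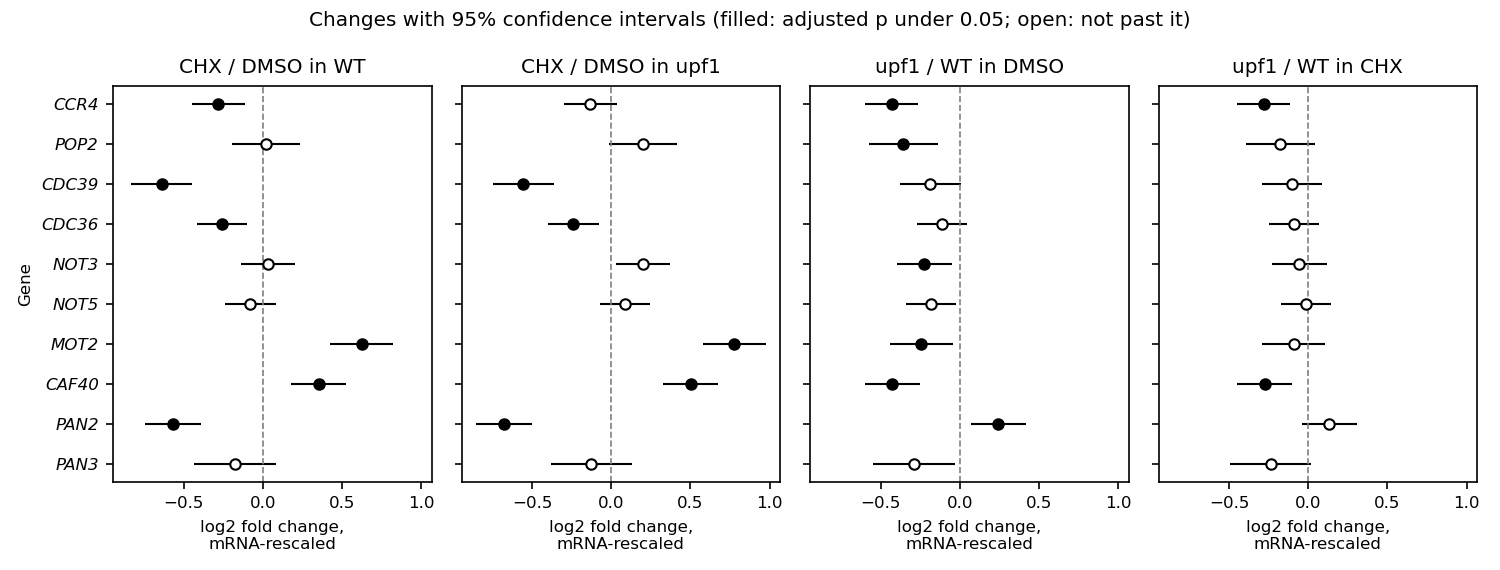
Log2 fold changes (horizontal axis, mRNA-rescaled) of the 10 mRNAs with 95% intervals, for CHX against DMSO in WT and in upf1 cells and for upf1 against WT cells in DMSO and in CHX; filled points passed an adjusted p of 0.05 and open points did not. The CHX panels run from -0.68 to 0.78 in upf1 and from -0.64 to 0.63 in WT, a wider spread than in the upf1 panels.

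The same question was put in cells without Upf1. MOT2 and CAF40 rose after rescaling in upf1 cells under CHX, and CDC39, PAN2 and CDC36 fell. In these cells 2 of the 10 genes passed upward and 3 downward after rescaling, against 16.1% and 21.4% of all features. On the deposited scale all 10 rose and none fell, against 89.0% and 0.231% of all features. Scaled on the total of protein-coding densities 6 rose and 1, PAN2, fell, where 2973 of 5897 protein-coding genes rose and 427 fell. On that scaling the median was 0.37 for the 10 and 0.33 for protein-coding genes. Of 5897 protein-coding genes, 1303 were higher and 1696 lower after rescaling. The median of the 10 after rescaling was -0.019, beside -0.054 for protein-coding genes and -0.045 for all features.

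MOT2 had 0.629 and 0.597 in upf1 CHX, against 0.379 and 0.333 in upf1 DMSO. The groups did not overlap, and the log2 change was 0.78 ± 0.09 (SE), or 1.71-fold (limma, adjusted p = 0.000577). CAF40, with 0.736 and 0.739 in upf1 CHX against 0.519 and 0.519 in upf1 DMSO, rose by 0.50 ± 0.08 (SE; limma adjusted p = 0.00176). The rises of MOT2 and CAF40 passed the test in both genotypes under all 17 alternatives.

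PAN2 showed the lowest change of the 10 in upf1 cells. It had 0.406 and 0.423 in upf1 CHX, against 0.690 and 0.643 in upf1 DMSO, a difference of -0.68 ± 0.08 on the log2 scale (SE; limma adjusted p = 0.000585). This call held under all 17 alternatives of the rescaled fit, whereas on the deposited scale the change was 0.53, upward, and passed the test (adjusted p = 0.00957) except without upf1 DMSO replicate 1, where it was 0.48 (adjusted p = 0.053). CDC39 had 0.743 and 0.815 in upf1 CHX, against 1.18 and 1.11 in upf1 DMSO, a change of -0.56 ± 0.08 (SE; limma adjusted p = 0.00173). Scaled on the total of protein-coding densities it was -0.16 and did not pass (adjusted p = 0.205, with a range of 6e-05 to 0.205 over 17 alternatives). The median protein-coding gene rose by 0.33 on that scaling.

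CDC36 was a marginal call in upf1 cells. It had 0.890 and 0.906 in upf1 CHX, against 1.04 and 1.09 in upf1 DMSO, without overlap and with a change of -0.24 ± 0.07 (SE; limma adjusted p = 0.028). The call was lost when any of the 4 upf1 libraries was left out: without upf1 CHX replicate 1 (adjusted p = 0.103), upf1 CHX replicate 2 (0.0815), upf1 DMSO replicate 1 (0.0532) and upf1 DMSO replicate 2 (0.116), within a range of 0.00918 to 0.131 over 17 alternatives. Scaled on the total of protein-coding densities CDC36 turned to 0.15, where the median protein-coding gene rose by 0.33. CCR4 (-0.13), POP2 (0.20), NOT3 (0.20), NOT5 (0.087) and PAN3 (-0.12) did not pass the test.

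No deadenylase gene passed the test of the difference between the CHX effects in upf1 and in WT cells. That is 0 of 10 by limma after rescaling, against 2.46% of all features upward and 21.6% downward, with 0 before adjustment (p under 0.05) and 0 by voom, limma's weighted fit to the recovered reads. The deposited scale also gave 0 of 10 by limma, 0 at p under 0.05 without adjustment and 0 by voom, where 0.205% of all features passed upward and 25.3% downward. The differences (upf1 minus WT) ran from -0.11 for PAN2 (95% interval -0.36 to 0.14) to 0.18 for POP2 (-0.13 to 0.49). These intervals leave room for differences of about the size of the weaker CHX effects. Over the 10 genes, the CHX change in upf1 and the CHX change in WT, which share no library, had a Pearson r of 0.987, and over 5897 protein-coding genes 0.70. These are descriptions across genes, which are not independent replicates and share the normalization of their libraries.

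**Figure D3:**
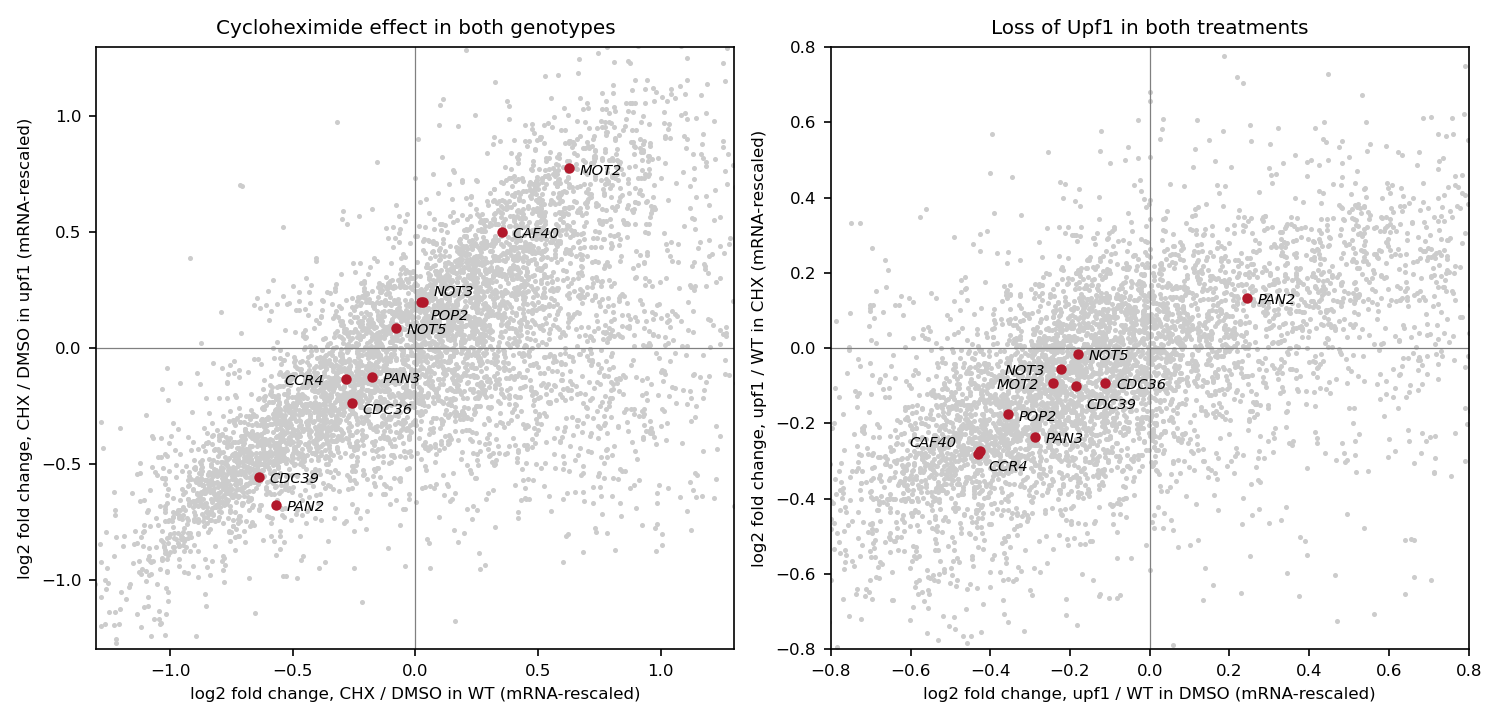
Log2 fold changes (mRNA-rescaled) of the 10 genes (red, named) and the other protein-coding genes (grey): CHX against DMSO in upf1 cells over the same in WT cells (left), and upf1 against WT cells in CHX over the same in DMSO (right). The 10 genes lie along a line in the left panel from PAN2 and CDC39 (-0.68 and -0.56 in upf1) to MOT2 (0.78); axes stop at 1.3 and 0.8, which leaves 343 and 884 genes outside.

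Ratios within a library need no scaling between libraries, and they give the composition of the set directly. The density of MOT2 over that of CDC39 was 0.847 and 0.732 in upf1 CHX, against 0.321 and 0.300 in upf1 DMSO. In WT cells the ratio was 0.796 and 0.768 in CHX, against 0.314 and 0.332 in DMSO. Every CHX library lay above every DMSO library, and the ratio of the ubiquitin ligase mRNA to the scaffold mRNA was thus at least 0.732 in CHX and at most 0.332 in DMSO.

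CAF40 over CDC39 was 0.991 and 0.907 in upf1 CHX, against 0.439 and 0.467 in upf1 DMSO, and 1.19 and 0.961 in WT CHX, against 0.503 and 0.571 in WT DMSO. Here too the CHX and DMSO libraries did not overlap. The ratio of the main deadenylase CCR4 to CDC39 was 0.839 and 0.715 in upf1 CHX, against 0.538 and 0.618 in upf1 DMSO, and 0.910 and 0.848 in WT CHX, against 0.677 and 0.692 in WT DMSO. PAN2 over CDC39 differed by genotype. It was 0.547 and 0.519 in upf1 CHX and 0.584 and 0.578 in upf1 DMSO, against 0.461 and 0.443 in WT CHX and 0.423 and 0.439 in WT DMSO. All 4 upf1 libraries were above all 4 WT libraries. Within a genotype, CHX libraries were below DMSO libraries in upf1 and above them in WT. These ratios show unequal change of the paired mRNAs and do not say which of them moved.

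**Figure D4:**
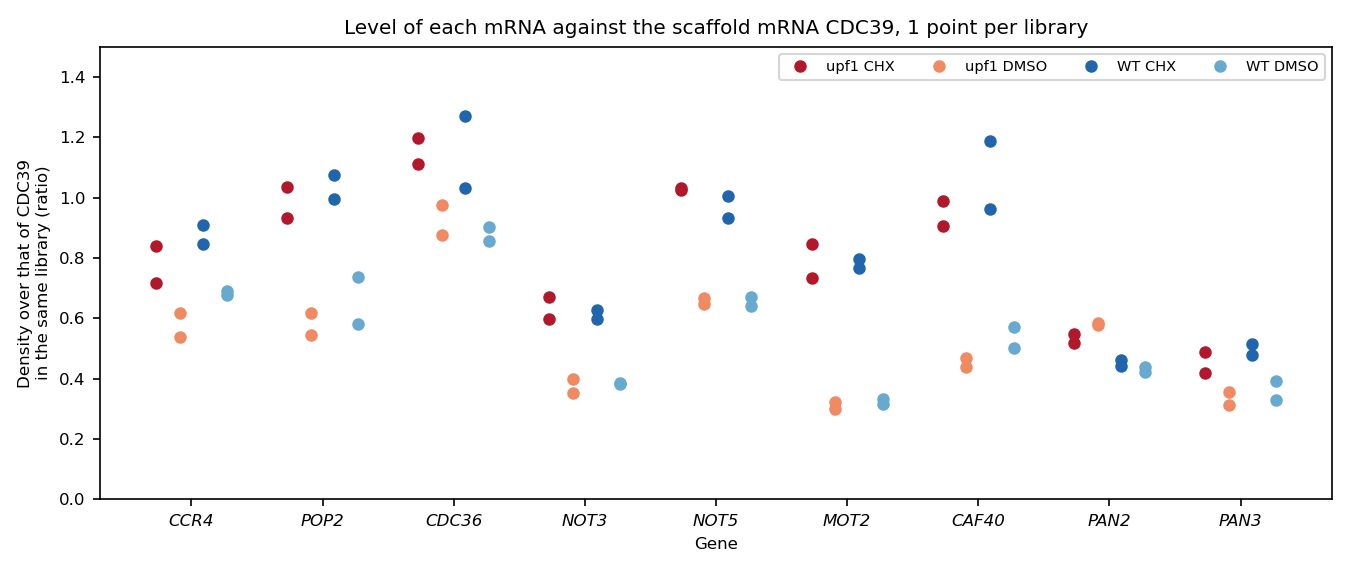
Density of each mRNA over that of CDC39 in the same library (vertical axis from 0, ratio without unit), with 1 point per library and colours for upf1 CHX, upf1 DMSO, WT CHX and WT DMSO. CHX libraries lie above DMSO libraries of the same genotype except for PAN2 in upf1 cells, where they lie below, and PAN2 is higher in every upf1 library than in every WT library, with 0.519 to 0.584 in upf1 against 0.423 to 0.461 in WT.

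The length of the genes differed along with the CHX change. CDC39 is the longest of the 10, with a coding length of 6327 nt on chromosome III (280117 to 286443, build R64), and PAN2 the next, with 3348 nt on chromosome VII (331118 to 334465). MOT2 has 1764 nt on chromosome V (293050 to 294813) and CAF40 1122 nt on chromosome XIV (90303 to 91424), and the annotation gives each of the 10 a single coding exon and no overlapping gene. Spearman's rho of the change with feature length was -0.53 in upf1 and -0.58 in WT over the 10 genes, against 0.014 in upf1 and -0.052 in WT over 5897 protein-coding genes, as descriptions across genes. The 288 genes with features over 4000 nt, where CDC39 belongs, had medians of -0.22 in upf1 and -0.24 in WT. The 1463 genes of 2000 to 4000 nt, where PAN2 belongs with 3689 nt, had 0.007 and 0.10. Those of 1000 to 2000 nt (2521 genes) had -0.026 and 0.10, and shorter ones (1625 genes) -0.11 and 0.047. The part of length in the CHX results was not tested. CDC36, the shortest at 576 nt, fell in both genotypes after rescaling.

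Loss of Upf1 in DMSO raised PAN2 and lowered CCR4, CAF40, POP2, MOT2 and NOT3 after rescaling. Thus 1 of the 10 genes passed upward and 5 downward, against 31.1% and 20.7% of all features. As deposited, 7 rose and none fell, against 62.0% and 0.889% of all features. The count of higher genes was 1 without WT DMSO replicate 1, 1 without upf1 DMSO replicate 2 and 2 without WT DMSO replicate 2. Scaled on the total of protein-coding densities 3 rose (CDC36, NOT5 and PAN2) and none fell, where 2949 of 5897 protein-coding genes rose and 238 fell. On that scaling the median was 0.17 for the 10 and 0.29 for protein-coding genes. With TMM factors, a trimmed mean over protein-coding genes, PAN2 rose and 2 fell (CCR4 and CAF40). With these factors 1645 of 5897 protein-coding genes rose and 1171 fell. After rescaling, 1376 of 5897 protein-coding genes were higher and 1854 lower. The median of the 10 after rescaling was -0.23, beside -0.11 for protein-coding genes and 0.051 for all features, so a change of -0.11 is that of the typical mRNA in this comparison. The 95% intervals of MOT2 (-0.44 to -0.043) and NOT3 (-0.39 to -0.051) include that value.

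PAN2 was the one deadenylase gene that was higher in upf1 cells on each of these scalings. Its rescaled density was 0.690 and 0.643 in upf1 DMSO, against 0.566 and 0.558 in WT DMSO, and the groups did not overlap. The log2 change was 0.24 ± 0.08 (SE; limma adjusted p = 0.0275), on the deposited scale 0.93 (adjusted p = 0.000522), with TMM factors 0.37 (adjusted p = 0.0049) and on the total of protein-coding densities 0.65 (adjusted p = 0.000373). The rescaled call was lost without WT DMSO replicate 1 (adjusted p = 0.086), WT DMSO replicate 2 (0.105) and upf1 DMSO replicate 1 (0.13), the highest adjusted p over 17 alternatives, of which the lowest was 0.000373.

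CCR4 and CAF40 were the lowest of the set in this comparison. CCR4 had 0.637 and 0.686 in upf1 DMSO, against 0.907 and 0.879 in WT DMSO, a difference of -0.43 ± 0.07 on the log2 scale (SE; limma adjusted p = 0.00175). CAF40 had 0.519 and 0.519 in upf1 DMSO, against 0.673 and 0.725 in WT DMSO, a change of -0.42 ± 0.08 (SE; limma adjusted p = 0.00228). Neither overlapped, and each call held without any single library and with TMM factors. On the total of protein-coding densities CCR4 changed by -0.020 (limma adjusted p = 0.847, with a range of 0.000309 to 0.847 over 17 alternatives). CAF40 changed by -0.016 there (adjusted p = 0.875, with a range of 0.000723 to 0.875). Both lay below the protein-coding median of 0.29 on that scaling.

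POP2, MOT2 and NOT3 passed the test by less. POP2 had 0.643 and 0.687 in upf1 DMSO, against 0.777 and 0.934 in WT DMSO, a change of -0.36 ± 0.09 (SE; limma adjusted p = 0.0143), lost without WT DMSO replicate 2 (adjusted p = 0.0828) or upf1 DMSO replicate 1 (0.0735), and with a range of 0.00374 to 0.622 over 17 alternatives. The MOT2 change of -0.24 ± 0.09 (adjusted p = 0.0455) was lost under 11 of 17 alternatives, among them each left-out library except upf1 DMSO replicate 1, with adjusted p-values from 0.0246 to 0.286. The NOT3 change of -0.22 ± 0.07 (adjusted p = 0.0363) was lost under 9 of 17, among them each left-out DMSO and upf1 library, with adjusted p-values from 0.0284 to 0.305. With TMM factors POP2, MOT2 and NOT3 did not pass (limma adjusted p = 0.0667, 0.286 and 0.305). On the total of protein-coding densities all 3 were above 0 and did not pass, and all 3 lay below the protein-coding median of 0.29. CDC39 (-0.19), CDC36 (-0.11), NOT5 (-0.18) and PAN3 (-0.29) did not pass after rescaling.

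The upf1 cells were also compared with WT cells in the presence of CHX. After rescaling 0 of the 10 genes passed upward by limma (0 at p under 0.05 without adjustment, 0 by voom) and 2 passed downward, against 5.86% and 9.22% of all features. These were CCR4, with 0.623 and 0.583 in upf1 CHX against 0.719 and 0.749 in WT CHX, and CAF40, with 0.736 and 0.739 in upf1 CHX against 0.940 and 0.849 in WT CHX. Their changes were -0.28 ± 0.07 for CCR4 (limma, adjusted p = 0.0393) and -0.27 ± 0.08 for CAF40 (adjusted p = 0.0482). The CCR4 call was lost under 9 and the CAF40 call under 13 of 17 alternatives, among them each left-out WT or upf1 CHX library, with adjusted p-values up to 0.549 and 0.569. The deposited densities gave 0 of the 10 genes past the threshold by limma, with 2 higher at p under 0.05 without adjustment, 1 by voom (PAN2) and 2 with the replicate number as a block, against 16.5% of all features upward and 1.44% downward.

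PAN2 had 0.406 and 0.423 in upf1 CHX, against 0.364 and 0.391 in WT CHX. Both upf1 libraries were higher, but the rescaled change of 0.13 (95% interval -0.042 to 0.31) did not pass the test (limma, adjusted p = 0.255). The deposited change was 0.51 (adjusted p = 0.0511), and it passed without upf1 CHX replicate 1 (0.68, adjusted p = 0.0137). Over the 10 genes the upf1 change in CHX and in DMSO, which share no library, had a Pearson r of 0.918, against 0.689 over protein-coding genes, again as a description across genes.

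The upstream ATGs can be set beside these values, a look chosen after the sequences and results had been seen. Of 1086 tested genes with a closed upstream ATG in the 50 bases before the start codon, 42.4% were higher in upf1 DMSO than in WT DMSO after rescaling, with a median change of 0.21. Of 4811 genes without one, 19.0% were higher and the median was -0.15. Of the 4 deadenylase genes with one, PAN2 rose (0.24), NOT3 fell (-0.22), and NOT5 (-0.18) and PAN3 (-0.29) did not pass. The part of these ATGs in the PAN2 result was not tested.

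Among the 10 genes, NOT3 and NOT5, paralogous subunits of the NOT module, had the most similar patterns over the 8 libraries. The root mean square difference of their centred log2 densities was 0.081. CDC39 was nearest to PAN2 (0.176) and MOT2 nearest to CAF40 (0.185). NOT5 lay closest to the mean pattern of the 10 (0.0573) and MOT2 farthest from it (0.377). Outside the set, the 5 genes most like the mean pattern among 2980 protein-coding genes of at least median level were GCD7 (0.038), STT4 (0.0406), TGL1 (0.0409), BET3 (0.0421) and NUP1 (0.046), beside a median of 0.247 over those genes.

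Partners and regulators of the deadenylases, a list of 22 genes, moved in both directions under CHX. In WT cells 9 rose and 9 fell after rescaling, against 44.1% and 18.9% of all features, with a median of 0.044. They ran from PAB1, which encodes the poly(A)-binding protein (-0.96; limma, adjusted p = 3.3e-05), to NGL3, which encodes a relative of Ccr4 (0.98; adjusted p = 0.000676). In upf1 cells 6 rose and 5 fell, against 16.1% and 21.4%, with a median of -0.056, from PAB1 (-0.86; adjusted p = 0.00014) to DBF2, a kinase of mitotic exit that has been found with Ccr4-Not (1.12; adjusted p = 0.000156). The other 4 that fell were PUB1 (-0.60), NAB2 (-0.43), PBP1 (-0.38) and PUF4 (-0.35), all RNA-binding proteins or, for PBP1, a binding partner of Pab1. The deposited densities of all 22 rose in both genotypes, against 89.0% of all features in upf1 and 95.0% in WT. Scaled on the total of protein-coding densities 12 rose and 2 fell in upf1, and 15 rose and 1 fell in WT. Of 5897 protein-coding genes, 2973 rose and 427 fell in upf1 on that scaling, and 4217 rose and 381 fell in WT.

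Among 5897 protein-coding genes, loss of Upf1 in DMSO lowered 1854 and raised 1376 after rescaling, with a median of -0.11. The 22 partners had a median of -0.33. Of them, 13 were lower and 2 higher, against 20.7% and 31.1% of all features. The 2 were NGL3 (1.64; limma, adjusted p = 6.19e-05) and BTT1, which encodes a subunit of the nascent polypeptide-associated complex (0.62; adjusted p = 0.00575), and the lowest was TIS11, which encodes a protein that directs decay of mRNAs with AU-rich elements (-1.25; adjusted p = 4.67e-05). As deposited, 12 rose and 1 fell, against 62.0% and 0.889% of all features. With TMM factors 5 rose and 9 fell, where 1645 protein-coding genes rose and 1171 fell. On the total of protein-coding densities 9 rose and 1 fell, where 2949 protein-coding genes rose and 238 fell. In CHX, 1 of the 22 was higher in upf1 cells after rescaling (NGL3, 0.64) and 7 were lower, against 5.86% and 9.22% of all features. TIS11 was the lowest (-0.87). On the deposited scale 2 were higher and none lower, against 16.5% and 1.44%. After rescaling, the CHX effect differed between genotypes for NGL3 (-1.0, limma adjusted p = 0.0103) and BTT1 (-0.78, adjusted p = 0.0219). It also differed for PBP1 (0.32, adjusted p = 0.0266). Of all features, 2.46% were higher and 21.6% lower in that test. PBP1 did not pass on the deposited scale (0.0041, adjusted p = 0.991), and no higher call was made among the 22 with TMM factors or on the total of protein-coding densities.

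The steps after deadenylation, 16 genes of decapping and 5′-to-3′ decay, fell more often than they rose in WT cells under CHX after rescaling. Of 5897 protein-coding genes in that comparison, 2059 rose and 1811 fell. Of the 16, 2 rose and 8 fell, against 44.1% and 18.9% of all features, with a median of -0.20. The 2 were EDC1, an enhancer of decapping (0.51; limma, adjusted p = 0.00399), and DCP2, the decapping enzyme (0.35; adjusted p = 0.00333), and the lowest was LSM5, a subunit of the Lsm ring (-0.96; adjusted p = 0.000718). In upf1 cells 5 rose and 5 fell, against 16.1% and 21.4%, with a median of -0.059. Those that rose were EDC2 (0.96), EDC1 (0.91), LSM3 (0.62), DCP2 (0.58) and EDC3 (0.29), and those that fell were XRN1, the 5′-to-3′ exonuclease (-0.63), LSM1 (-0.53), LSM7 (-0.45), LSM6 (-0.34) and LSM2 (-0.25). The deposited densities of all 16 rose in both genotypes, against 89.0% of all features in upf1 and 95.0% in WT. On the total of protein-coding densities 9 rose and none fell in upf1, and 13 rose and 2 fell in WT. Of 5897 protein-coding genes, 2973 rose and 427 fell in upf1 on that scaling, and 4217 rose and 381 fell in WT.

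Loss of Upf1 in DMSO lowered 11 of these 16 and raised none after rescaling. Among all features 20.7% were lower and 31.1% higher, and among 5897 protein-coding genes 1854 and 1376. The median of the 16 was -0.29, from LSM5 (-0.93) to LSM1 (0.093). On the deposited scale 9 rose and none fell, against 62.0% and 0.889% of all features. With TMM factors 1 rose and 7 fell, where 1645 protein-coding genes rose and 1171 fell. On the total of protein-coding densities 4 rose and 1 fell, where 2949 protein-coding genes rose and 238 fell. In CHX, 3 were lower in upf1 cells after rescaling, LSM4 (-0.54), LSM7 (-0.35) and SCD6 (-0.33), against 9.22% of all features. The highest was DCS1 (0.23), which did not pass, and 5.86% of all features were higher. On the deposited scale 1 was higher, against 16.5% of all features. The CHX effect was higher in upf1 than in WT cells for EDC2 (0.86, limma adjusted p = 0.0396) and LSM5 (0.81, adjusted p = 0.022). That was after rescaling, where 2.46% of all features were higher. On the deposited scale it was higher for none of the 16, against 0.205% of all features.

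A further 5 mRNAs, substrates in earlier studies of deadenylation, were also read. PGK1, the mRNA of a glycolytic enzyme, changed by -0.96 (limma, adjusted p = 0.000719) under CHX in upf1 cells and by -1.36 (adjusted p = 7.4e-05) in WT cells, and SDH4, a subunit of succinate dehydrogenase, by -0.46 (adjusted p = 0.0393) in upf1 and -0.74 (adjusted p = 0.00282) in WT cells. The pheromone mRNA MFA2 (0.39 in upf1, 0.060 in WT) did not pass in either. COX17, a Puf3 target, rose in upf1 (0.29, adjusted p = 0.0298) and did not pass in WT (-0.097), and HO fell in upf1 (-0.36, adjusted p = 0.0129) and did not pass in WT (-0.16). The difference between the CHX effects did not pass for COX17 (0.39, adjusted p = 0.0518) or HO (-0.20, adjusted p = 0.255), and with TMM factors the COX17 rise in upf1 was no longer called. In DMSO, loss of Upf1 lowered MFA2 (-0.90), PGK1 (-0.78), SDH4 (-0.76) and COX17 (-0.58) after rescaling, and HO (-0.16) did not pass. In CHX, MFA2 (-0.58) and HO (-0.36) were lower in upf1 than in WT cells, and PGK1 (-0.38), SDH4 (-0.47) and COX17 (-0.19) did not pass. These upf1 results depended on the scaling. As deposited, HO was higher in DMSO (0.53, limma adjusted p = 0.0228), and the other 4 in DMSO and all 5 in CHX did not pass. Of all features, 62.0% were higher in DMSO and 16.5% in CHX on that scale. On the total of protein-coding densities 1 was higher and 2 lower in DMSO, beside 2949 and 238 of 5897 protein-coding genes. No call was made in CHX, beside 1248 and 155 of them. With TMM factors 4 were lower in DMSO and 1 in CHX, beside 1171 and 445 protein-coding genes. The CHX results depended on the scaling as well: the deposited densities of 4 of the 5 rose with CHX in each genotype. So did those of 95.0% of all features in WT and 89.0% in upf1. On the total of protein-coding densities 3 rose and 1 fell in WT, and 2 rose and 1 fell in upf1. Of 5897 protein-coding genes, 4217 rose and 381 fell in WT on that scaling, and 2973 rose and 427 fell in upf1. With TMM factors none rose, while 2 fell in WT and 3 in upf1. With these factors 2059 protein-coding genes rose and 1815 fell in WT, and 1102 rose and 2034 fell in upf1. The difference of CHX effects was called lower for 1 of the 5 on the total of protein-coding densities, beside 1266 of 5897 protein-coding genes.

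**Figure D5:**
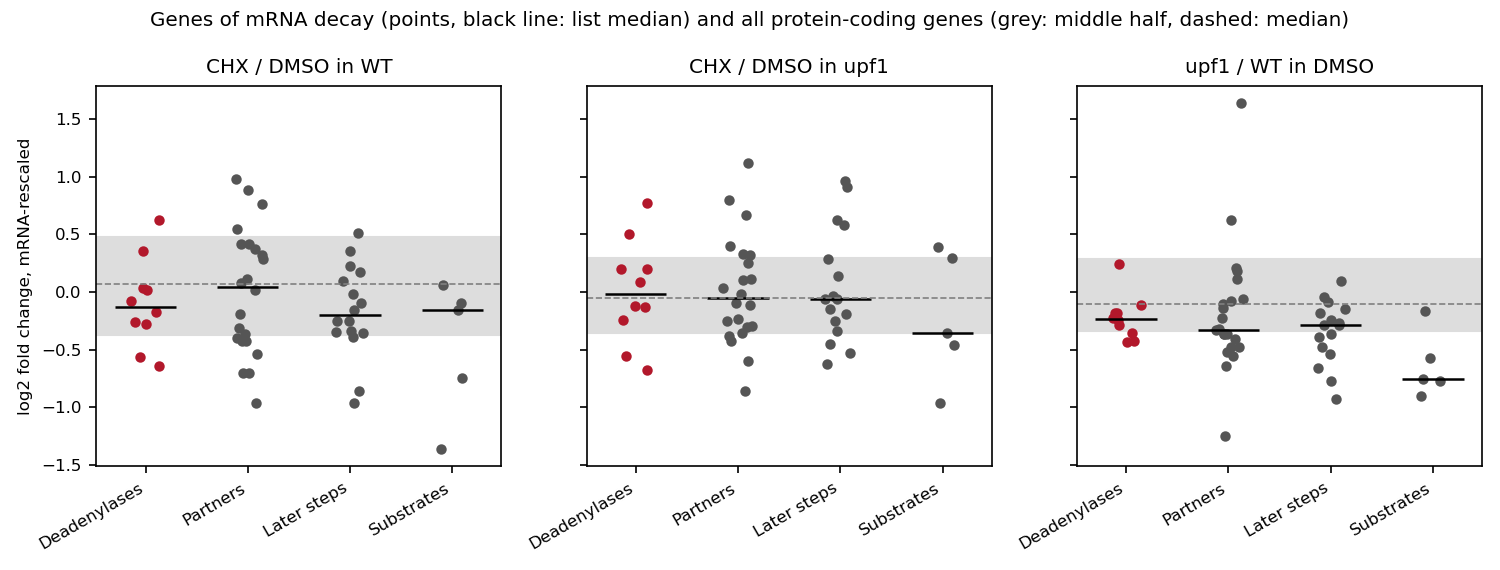
Log2 fold changes (vertical axis, mRNA-rescaled) of the 10 deadenylase genes (red), 22 partners, 16 genes of later steps and 5 substrates (dark grey) for CHX against DMSO in WT, CHX against DMSO in upf1, and upf1 against WT in DMSO; black lines are list medians, the band is the middle 50% of protein-coding genes and the dashed line their median. In the right panel the medians of -0.23, -0.33, -0.29 and -0.76 lie below that of protein-coding genes (-0.11).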

How the data were processed

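The authors' deposited table held a signal, a normalized read density per feature, for 8 libraries; their group means were not used. Build R64, DESeq2, featureCounts 2.0.0, HISAT2 2.2.0 and Trim Galore are named, without roles, in the submitters' processing notes. The normalization step, annotation and filters were not given in the sources used here. Within 0.001 reads, all 11986 features above 0 were whole multiples of the value of 1 read, a step that depends on feature length, so reads were recovered but no count model was the main test. Feature lengths exceed the coding length by 89 to 341 nt for the 10 genes.

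Tests used limma 3.58.1 in R 4.3.3 on log2(density + 0.005488), the 5th percentile of values above 0; fold changes are on that scale and understate those of low features. Of 11993 features, 11700 with a mean at or above that value were tested (293 left out), all 10 genes among them. All 8 libraries shared 1 fit with a mean per group, and p-values were adjusted by Benjamini-Hochberg over all features, at 0.05. Fits were run on deposited and on mRNA-rescaled densities, and checked on simulated data. Alternatives changed the pseudocount, filter, libraries, replicate block, scaling, or used voom.

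Named genes were all 10 members, NAM7 and the 5 substrates; of partners and later steps, the highest and lowest in each comparison and those past the threshold where 5 or fewer passed. Members and lists were chosen with earlier results of these data known. Sequences are RefSeq's, build R64.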

Additional observations from a re-analysis of the deposited data

How the results depend on the processing

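Scaling decides most directions, since nearly all deposited densities are higher with CHX, and many are higher in upf1 than in WT cells in DMSO. The counts of higher and lower calls among the 10 genes on the deposited scale, beside those after rescaling, were 10 and 0 beside 2 and 4 for CHX in WT, 10 and 0 beside 2 and 3 for CHX in upf1, 7 and 0 beside 1 and 5 for upf1 in DMSO, and 0 and 0 beside 0 and 2 for upf1 in CHX. Scaled on the total of protein-coding densities, the rescaled counts became 8 and 0, 6 and 1, 3 and 0, and 1 and 0. Over 5897 protein-coding genes those counts were 4217 and 381, 2973 and 427, 2949 and 238, and 1248 and 155. With TMM factors the lower counts became 2 for upf1 in DMSO and 0 for upf1 in CHX, beside 1171 and 445 protein-coding genes. A fit to only the groups compared gave 2 and 0 lower, and a pseudocount 10 times smaller gave 1 lower for upf1 in CHX. On the deposited scale, the count of higher genes for upf1 in CHX was 1 with 10 times the pseudocount, 1 with features at or above the median and 1 by voom. For upf1 in CHX the calls are few and near the threshold; elsewhere the cause was not tested.

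With 1 library left out at a time, where the group with 1 library is assumed to vary like the others, the deposited counts of higher genes ran from 9 to 10 for CHX in upf1, from 1 to 7 for upf1 in DMSO (1 without WT DMSO replicate 1 or upf1 DMSO replicate 2, and 2 without WT DMSO replicate 2) and from 0 to 4 for upf1 in CHX (4 without upf1 CHX replicate 1), and lower genes from 0 to 1 in the difference of CHX effects (PAN2 without upf1 CHX replicate 2). The rescaled counts ran from 2 to 4 lower for CHX in WT, 2 to 3 lower for CHX in upf1, 0 to 1 higher and 2 to 4 lower for upf1 in DMSO, and 0 to 1 lower for upf1 in CHX. The counts of 2 higher genes under CHX stayed at 2 in both genotypes.

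After rescaling, replicate numbers did not pair the samples: same-numbered libraries deviated with correlations of -0.039 to 0.077. These correlations leave out the scale of each library. The median ratio used for rescaling was higher in replicate 2 than in replicate 1 in each group. It was 0.475 and 0.498 in WT DMSO, 1.36 and 1.46 in WT CHX, 0.736 and 0.850 in upf1 DMSO, and 1.66 and 2.04 in upf1 CHX. With the replicate block, 2 genes (PAN2 and NOT5) were higher for upf1 in CHX on the deposited scale and 1 was lower after rescaling. For upf1 in DMSO, CCR4 (limma, adjusted p = 0.0468) and POP2 (0.0117) joined the genes higher on the deposited scale. CAF40 still did not pass there (0.0541). After rescaling, MOT2 was no longer called lower for upf1 in DMSO (adjusted p = 0.051).

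Rescaling turned these deposited changes. For CHX in WT they became CCR4 -0.28, CDC39 -0.64, CDC36 -0.26, NOT5 -0.078, PAN2 -0.57 and PAN3 -0.18. For CHX in upf1 they became CCR4 -0.13, CDC39 -0.56, CDC36 -0.24, PAN2 -0.68 and PAN3 -0.12. For upf1 in DMSO they became CCR4 -0.43, POP2 -0.36, CDC39 -0.19, CDC36 -0.11, NOT3 -0.22, MOT2 -0.24, NOT5 -0.18, CAF40 -0.42 and PAN3 -0.29. For upf1 in CHX they became CCR4 -0.28, POP2 -0.18, CDC39 -0.10, CDC36 -0.092, NOT3 -0.056, MOT2 -0.092, NOT5 -0.015, CAF40 -0.27 and PAN3 -0.24. For the difference of CHX effects they became CCR4 0.15, POP2 0.18, CDC39 0.083, CDC36 0.019, NOT3 0.17, MOT2 0.15, NOT5 0.16, CAF40 0.15 and PAN3 0.051.

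On the total of protein-coding densities, the median protein-coding change was 0.64 for CHX in WT and 0.33 for CHX in upf1. It was 0.29 for upf1 in DMSO, 0.16 for upf1 in CHX and -0.17 in the difference. Scaling on that total turned these rescaled changes. For CHX in WT they became CCR4 0.31, CDC36 0.34, NOT5 0.51, PAN2 0.023 and PAN3 0.41, and for CHX in upf1 CCR4 0.26, CDC36 0.15 and PAN3 0.26. For upf1 in DMSO they became POP2 0.054, CDC39 0.23, CDC36 0.30, NOT3 0.19, MOT2 0.16, NOT5 0.23 and PAN3 0.12, and for upf1 in CHX POP2 0.032, CDC39 0.11, CDC36 0.12, NOT3 0.15, MOT2 0.12 and NOT5 0.19. For the difference they became CCR4 -0.053, POP2 -0.022, CDC39 -0.12, CDC36 -0.18, NOT3 -0.033, MOT2 -0.048, NOT5 -0.037, CAF40 -0.051 and PAN3 -0.15. TMM factors gave CDC36 -0.050 and PAN3 -0.018 in the difference, NOT5 0.039 for upf1 in CHX and CDC36 0.013 for upf1 in DMSO.

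Leaving out a library turned 10 changes near 0, none of them called. On the deposited scale CAF40 ran from -0.045 to 0.25 and CCR4 from -0.0012 to 0.19 for upf1 in CHX, and NOT5 from -0.36 to 0.058 and POP2 from -0.30 to 0.029 in the difference. After rescaling CDC36 ran from -0.050 to 0.088 and PAN3 from -0.088 to 0.19 in the difference, POP2 from -0.11 to 0.15 and NOT3 from -0.013 to 0.077 for CHX in WT, PAN3 from -0.26 to 0.014 for CHX in upf1 and NOT5 from -0.079 to 0.048 for upf1 in CHX. Over both scales, 1430 single-gene values kept their direction and side of the threshold, 89 lost the call, 23 gained one and 88 changed direction. edgeR and DESeq2 were not run, since the deposited values are densities. With 2 libraries per group, small differences are not resolved.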
